A study of Homo sapiens with 12 samples.

Results

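Genes that detect foreign or misplaced nucleic acids, and genes that relay the alarm, were followed across 12 RNA-seq libraries of human gastric cancer cells. The set held 10 genes of the 50868 gene identifiers in the count table: RIGI, IFIH1, TLR3, CGAS, MAVS, STING1, TBK1, IRF3, IRF7 and EIF2AK2. They were chosen by symbol for their known roles, though with earlier results of these data known. All 10 were found under their Ensembl identifiers (RIGI, STING1 and CGAS carry the older names DDX58, TMEM173 and MB21D1). In GENCODE 29 on GRCh38 the RNA sensors lie at chr9:32455705-32526324 (RIGI), chr2:162267079-162318703 (IFIH1) and chr4:186069152-186088069 (TLR3), CGAS at chr6:73413515-73452276 and EIF2AK2 at chr2:37099210-37157065. The adaptors lie at chr20:3846799-3876123 (MAVS) and chr5:139475534-139482935 (STING1), and TBK1, IRF3 and IRF7 at chr12:64451880-64502108, chr19:49659569-49665875 and chr11:612553-615999.

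The study altered ZNF165, a zinc-finger gene normally active mainly in the testis, in MKN28 and MKN45, both widely used cell lines grown from gastric cancers. The 4 groups, of 3 libraries each, were MKN28 cells given a lentivirus with an siRNA against ZNF165 (knockdown), MKN28 cells given a control lentivirus, MKN45 cells given a lentivirus carrying ZNF165 (overexpression) and MKN45 cells given a control lentivirus. Cells of every group had therefore received a lentivirus, and the labels call the control cells wild type at ZNF165. The labels do not say how long after transduction cells were harvested, whether lines were selected as clones, or whether replicates were separate cultures, so p-values here measure a spread between libraries that may be technical. In the label descriptions, knockdown replicate 2 is tied to ZNF166 and knockdown replicate 3 to ZNF167. Both were kept in the knockdown group because the genotype given for them is ZNF165 knockdown.

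Cells sense double-stranded RNA in the cytosol with RIG-I (RIGI) and MDA5 (IFIH1), which signal through MAVS on mitochondria, and in endosomes with TLR3, which uses the adaptor TICAM1. DNA in the cytosol is bound by cGAS (CGAS), whose cyclic dinucleotide product activates STING (STING1). These routes meet at the kinase TBK1, which phosphorylates the transcription factors IRF3 and IRF7 and so switches on interferon genes, while PKR (EIF2AK2) binds double-stranded RNA and slows translation by phosphorylating eIF2alpha. In epithelial cells most of these genes are themselves raised by interferon, in part through promoter motifs read by IRF and STAT factors.

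Promoter windows, from 250 bases before to 50 bases after the annotated start, were matched for 6 of the 10 genes (RIGI, IFIH1, MAVS, TLR3, TBK1 and EIF2AK2) in a RefSeq table of GRCh38.p14. MAVS, which also fell in knockdown cells, and TBK1 have windows without interferon-type motifs, and these are not shown. The 4 windows shown here were picked for the motifs they hold, among the RNA sensors and the kinase gene that fell in knockdown cells. They are written 5′ to 3′ on the gene's strand, and capitals mark letters of the interferon-stimulated response element (ISRE) core (GAAA, any 2 bases, GAAA) or of the shorter IRF core AANNGAAA, read on either strand.
RIGI, chr9:32526147-32526446, minus strand: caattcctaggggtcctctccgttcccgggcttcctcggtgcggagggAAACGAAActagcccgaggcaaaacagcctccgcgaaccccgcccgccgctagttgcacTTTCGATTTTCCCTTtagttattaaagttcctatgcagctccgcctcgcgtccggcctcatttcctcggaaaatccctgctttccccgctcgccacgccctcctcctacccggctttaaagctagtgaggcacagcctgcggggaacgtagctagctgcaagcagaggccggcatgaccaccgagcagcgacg
IFIH1, chr2:162318635-162318934, minus strand: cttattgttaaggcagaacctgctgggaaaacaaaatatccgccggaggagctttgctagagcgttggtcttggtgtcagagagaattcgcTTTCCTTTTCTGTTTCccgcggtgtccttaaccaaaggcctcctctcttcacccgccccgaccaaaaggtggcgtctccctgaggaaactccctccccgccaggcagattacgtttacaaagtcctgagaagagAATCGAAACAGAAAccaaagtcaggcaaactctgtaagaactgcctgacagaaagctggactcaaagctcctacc
TLR3, chr4:186068906-186069205, plus strand: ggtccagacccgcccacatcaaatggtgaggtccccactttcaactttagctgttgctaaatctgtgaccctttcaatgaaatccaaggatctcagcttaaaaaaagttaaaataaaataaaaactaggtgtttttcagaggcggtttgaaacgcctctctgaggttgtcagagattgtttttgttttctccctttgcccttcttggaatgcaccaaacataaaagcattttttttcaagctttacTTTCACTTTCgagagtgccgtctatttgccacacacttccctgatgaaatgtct
EIF2AK2, chr2:37156931-37157230, minus strand: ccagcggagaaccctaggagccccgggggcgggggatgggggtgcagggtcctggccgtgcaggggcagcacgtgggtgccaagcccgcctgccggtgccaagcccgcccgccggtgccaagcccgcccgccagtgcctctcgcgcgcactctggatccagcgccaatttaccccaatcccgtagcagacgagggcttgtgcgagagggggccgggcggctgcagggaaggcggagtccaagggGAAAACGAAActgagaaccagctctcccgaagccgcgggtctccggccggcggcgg

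The ISRE core was found in 3 of the 6 windows (IFIH1, TLR3 and EIF2AK2), and in 3.57% of the 35116 promoters of the table. In IFIH1 it occurred 3 times, on both strands, and in TLR3 and EIF2AK2 it lay across the annotated start. The IRF core, which every ISRE core contains and which was added after the sequences had been seen, was present in 4 windows (RIGI as well) and in 22.8% of all promoters. RIGI held it 3 times. The GAS core TTCNNNGAA, a motif of STAT dimers, was found in TLR3 alone of the 6 windows, in 2 places, against 7.66% of all promoters, and the NF-kB motif in RIGI and IFIH1, against 5.91%. The windows of MAVS and TBK1 held none of these letters. These matches describe the letters and not the binding of any factor.

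Library totals ranged from 12075813 to 19548445 counts, and 17504 to 22579 genes had at least 1 count. ZNF165 averaged 3.74 ± 1.13 CPM (counts scaled to a common library total) in knockdown libraries and 10.4 ± 2.31 CPM in MKN28 controls, and 104 ± 6.20 CPM in overexpression libraries and 12.2 ± 4.76 CPM in MKN45 controls (SD, n = 3 each). Its fall passed the threshold in the knockdown (log2 fold change −1.47, adjusted p = 0.0459), with an adjusted p of 0.0116 to 0.173 when single libraries were left out, and its rise passed in the overexpression (3.09, adjusted p = 0.0109). Of 10 gastric epithelial markers, 7 reached 10 counts in MKN28 libraries and 8 in MKN45 libraries. Of 10 immune markers 2 to 3 reached 10 counts in each group. NKG7 and MS4A1 had 0 counts in every library, while CD68 had 48 to 696 counts in all 12, LYZ had 1577 to 4560 counts in MKN45 libraries and CD14 had 26 to 63 counts in knockdown libraries. Knockdown replicates 2 and 3 and MKN45 control replicate 2 stood apart: the rank correlation of gene level with GC content, across genes within a library, was 0.323 and 0.317 in those knockdown libraries and 0.142 in that control, against −0.112 to 0.0794 in the other 9.

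**Figure D1:**
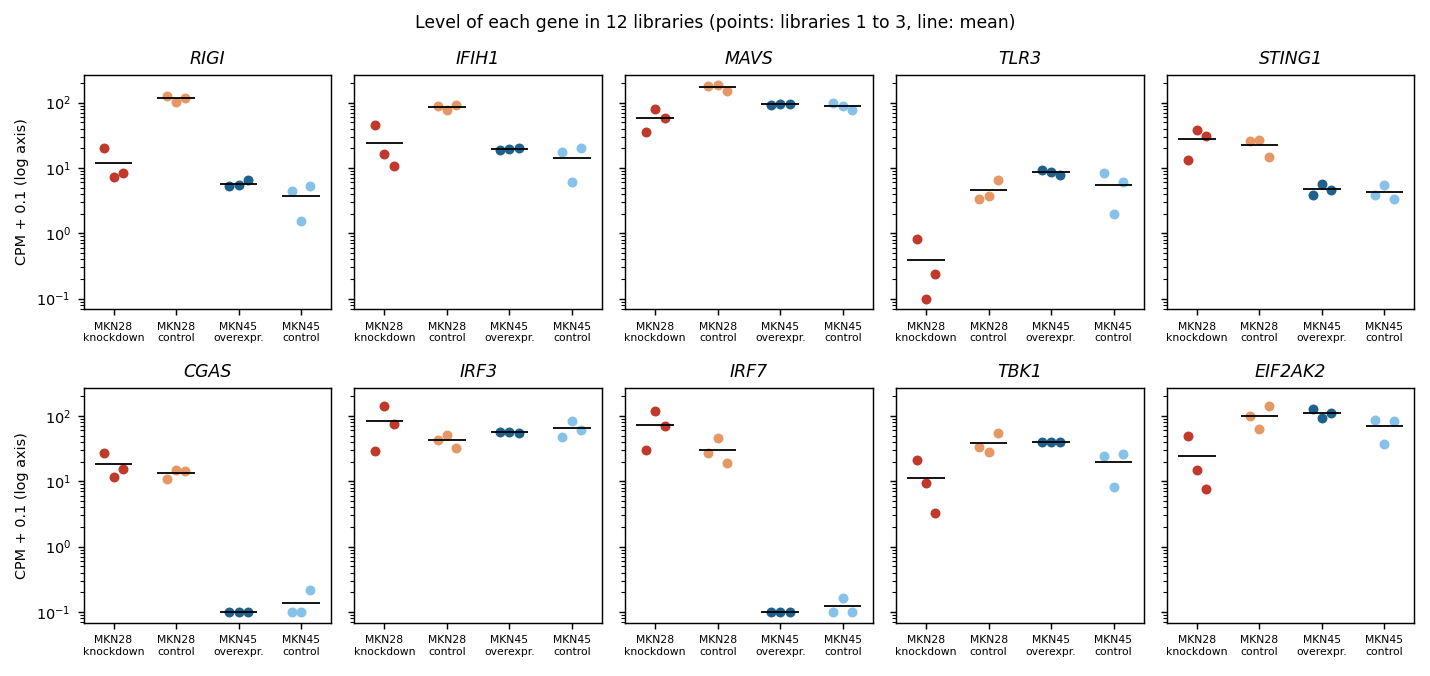
Level of each gene in the 12 libraries, as CPM scaled over all libraries plus 0.1 on a log axis; points are libraries 1 to 3 of a group and the line is their mean. RIGI in knockdown libraries lay between 7.21 and 19.7 CPM, below all MKN28 controls, and CGAS and IRF7 lay at or near 0 in all 6 MKN45 libraries.

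Levels were compared between genes as CPM per kilobase of the longest annotated transcript. In knockdown cells IRF7 (35.6 ± 21.7) and IRF3 (28.6 ± 19.8) stood highest and TLR3 lowest (0.048 ± 0.064 CPM per kb, SD, n = 3), and TLR3 was the only gene whose range did not overlap that of its neighbour in the order. In MKN28 controls RIGI led with 26.5 ± 3.02 CPM per kb, followed by IFIH1 with 23.6 ± 1.98, and the factors IRF7 (14.8 ± 6.56) and IRF3 (14.6 ± 3.24) came after. Each gene down to CGAS (4.12 ± 0.677) overlapped the next in that order, and TLR3 (0.738 ± 0.291) lay below all others.

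MKN45 cells had another order. In overexpression libraries IRF3 stood highest with 19.5 ± 0.408 CPM per kb, above TBK1 with 12.3 ± 0.102 and EIF2AK2 with 11.1 ± 1.73, the last pair overlapping. MKN45 controls also had IRF3 on top, with 22.3 ± 6.46 CPM per kb, and MAVS, EIF2AK2, TBK1 and IFIH1 followed between 7.46 and 3.98 with overlapping neighbours. RIGI reached 1.30 ± 0.140 CPM per kb in overexpression libraries and 0.838 ± 0.450 in MKN45 controls, below TLR3 in the means of both groups, though its range overlapped that of TLR3.

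Knockdown of ZNF165 in MKN28 was accompanied by lower levels of RNA sensors. RIGI, IFIH1, TLR3, the adaptor MAVS and the kinase gene EIF2AK2 fell, which made 5 of 10 genes, and no gene of the set rose. Of all 14939 genes tested, 40.8% passed the threshold, 21.6% with a lower and 19.2% with a higher level. The threshold was an adjusted p under 0.05 in edgeR's quasi-likelihood test with Benjamini-Hochberg adjustment over all genes. For rising genes the count was also 0 at an unadjusted p under 0.05, whereas DESeq2 called 1 (IRF7), and for falling genes it was 6 in both. The median log2 fold change of the 10 genes was −1.72, against −0.20 for all genes.

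RIGI, the sensor of short and 5′-triphosphate RNA, had 19.7, 7.21 and 8.35 CPM in knockdown libraries, against 127, 101 and 118 CPM in MKN28 controls. Every knockdown library lay below every control. Its log2 fold change of −3.34 ± 0.56 (SE, adjusted p = 0.00372) was a 10.1-fold lower level, and RIGI passed under every alternative setting run. IFIH1, the sensor of long double-stranded RNA, had 44.8, 16.0 and 10.5 CPM in knockdown libraries, against 87.2, 76.8 and 90.5 CPM in controls. The groups did not overlap, with knockdown replicate 1 nearest to the controls, and the log2 fold change was −1.87 ± 0.60 (adjusted p = 0.0303). Without any 1 of knockdown replicates 2 and 3 and the 3 controls, IFIH1 did not pass (adjusted p up to 0.106), and without both of those knockdown libraries its log2 fold change was −0.91 (adjusted p = 0.205, with the spread taken from the controls alone).

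TLR3, the endosomal receptor of double-stranded RNA, was scarce. It had 10, 0 and 1 counts in knockdown libraries, against 72, 71 and 141 counts in MKN28 controls. All controls lay above all knockdown libraries, and the log2 fold change was −3.80 ± 0.92 (adjusted p = 0.0103). From summed counts over unscaled library totals, the level was 21.8-fold lower in knockdown cells (exact 95% interval 11.98 to 44.1, counting error only).

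CGAS, the sensor of cytosolic DNA, had 27.1, 11.7 and 15.1 CPM in knockdown libraries, against 10.7, 14.6 and 14.1 CPM in MKN28 controls. The groups overlapped and the log2 fold change of 0.41 ± 0.52 did not pass (adjusted p = 0.555), and its sign turned with library totals alone (−0.24). STING1, the adaptor downstream of it, had 13.0, 38.5 and 30.5 CPM in knockdown libraries and 25.3, 26.2 and 14.5 CPM in controls. Its values overlapped as well (log2 fold change 0.26 ± 0.54, adjusted p = 0.720), and it turned to −0.66 with library totals alone. Neither gene of the DNA route passed as fitted, though CGAS did after correction for length and GC content (1.41, adjusted p = 0.00975).

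MAVS, the mitochondrial adaptor of both cytosolic RNA sensors, had 35.9, 79.2 and 58.7 CPM in knockdown libraries, against 178, 184 and 152 CPM in MKN28 controls. The highest knockdown library stood well below the lowest control, and the log2 fold change was −1.62 ± 0.45 (adjusted p = 0.0178). MAVS did not pass without knockdown replicate 3, MKN28 control replicate 1 or MKN28 control replicate 3 (adjusted p up to 0.0779). It was the only falling gene of the set that was lowest in knockdown replicate 1.

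TBK1, the kinase that joins the routes, had 21.3, 9.38 and 3.15 CPM in knockdown libraries, against 32.9, 27.5 and 54.8 CPM in MKN28 controls. The groups did not overlap, yet the log2 fold change of −1.81 ± 0.70 missed the threshold (adjusted p = 0.0593). On the opposite strand it shares 1022 nt with AC135279.3, which had 26 counts in knockdown replicate 3 where TBK1 had 23. TBK1 passed in DESeq2 (−1.72, adjusted p = 0.0223) and without knockdown replicate 1 (−2.57, adjusted p = 0.000913). EIF2AK2, the translation-slowing kinase PKR, followed the same order with 49.5, 14.8 and 7.39 CPM in knockdown libraries, against 99.2, 63.3 and 140.4 CPM in controls. No knockdown library reached a control, and EIF2AK2 passed with a log2 fold change of −2.13 ± 0.72 (adjusted p = 0.0363). Its call was lost without knockdown replicate 2 or 3 or MKN28 control replicate 1 or 3 (adjusted p up to 0.124). Without both knockdown replicates 2 and 3, RIGI (−2.53, adjusted p = 0.0116), TLR3 (−2.60, adjusted p = 0.0429) and MAVS (−2.23, adjusted p = 0.0152) had adjusted p under the threshold and EIF2AK2 (−1.02, adjusted p = 0.214) did not. The knockdown group is then 1 library, the spread comes from the controls alone, and that library is assumed to vary as they do.

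IRF3, the constitutive interferon regulatory factor, had 28.9, 142 and 75.7 CPM in knockdown libraries and 43.3, 50.4 and 32.0 CPM in MKN28 controls. Knockdown replicate 1 was the lowest of the 6 libraries and knockdown replicate 2 the highest (log2 fold change 0.92 ± 0.57, adjusted p = 0.218). IRF7, the interferon-inducible factor, showed a like spread, with 30.4, 119 and 69.5 CPM in knockdown libraries and 26.8, 45.3 and 19.1 CPM in controls. Its log2 fold change of 1.22 ± 0.57 did not pass (adjusted p = 0.109). Without knockdown replicate 1 both passed, IRF3 with 1.43 (adjusted p = 0.00433) and IRF7 with 1.70 (adjusted p = 0.00241), and the set then counted 8 genes past the threshold, 6 lower and 2 higher. In that fit 10378 of all genes passed, 5917 lower and 4461 higher, against 6092 with every library kept. With library totals alone the value of IRF3 was −0.063, so its sign depended on the scaling.

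**Figure D2:**
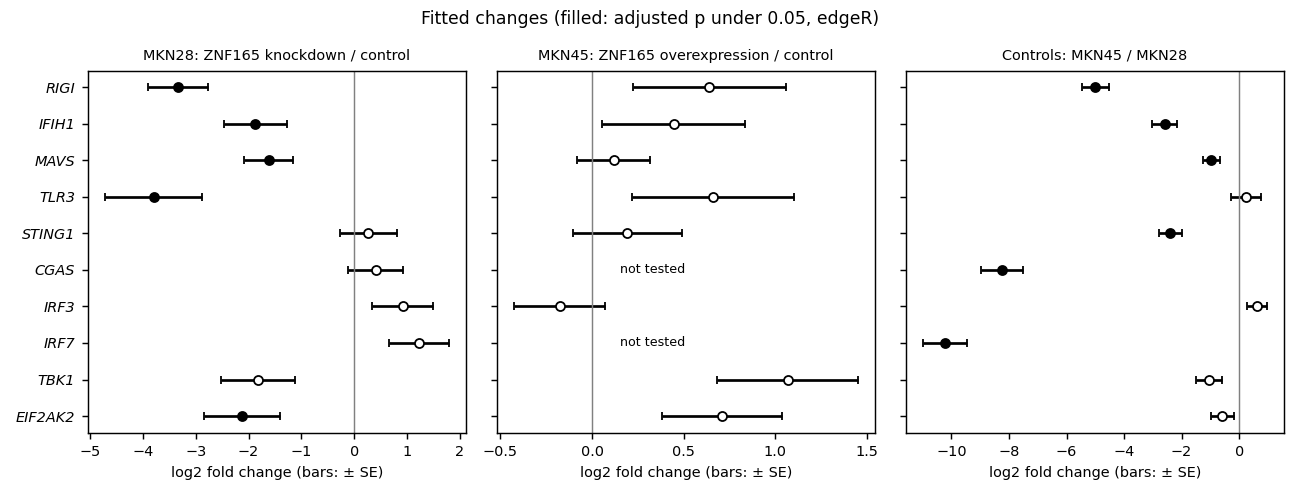
Fitted log2 fold changes (points) with standard errors (bars) for the 10 genes in the knockdown, in the overexpression and between the control cells of both lines; filled points passed the threshold in edgeR. In the knockdown the filled points are RIGI, IFIH1, MAVS, TLR3 and EIF2AK2, no point is filled in the overexpression, and the axes differ in range.

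Base composition and length moved with these changes. Across all genes the median knockdown log2 fold change was −1.60 in the quartile of lowest GC content, −0.60 and 0.45 in the middle quartiles and 1.05 in the quartile of highest GC content. By transcript length it was 1.15 in the shortest quartile and −1.62 in the longest. TLR3 (37.6% GC), EIF2AK2 (38.7%), TBK1 (39.3%) and RIGI (40.5%) belong to the lowest GC quartile, IFIH1 (43.3%) and CGAS (43.6%) to the next, MAVS (52.1%) to the third, and STING1 (56.8%), IRF3 (59.0%) and IRF7 (66.8%) to the highest. MAVS, with a transcript of 11714 nt, EIF2AK2, with 10042 nt, and TLR3, with 6015 nt, belong to the longest quartile. Within libraries the rank correlation of gene level with transcript length was −0.0035 to 0.0786 in knockdown libraries, against 0.249 to 0.326 in MKN28 controls.

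With each library's trend on length and GC content removed, RIGI (log2 fold change −1.59, adjusted p = 0.00274) and IFIH1 (−0.81, adjusted p = 0.0369) still fell. TLR3 kept a value of −1.79 without passing (adjusted p = 0.0653), MAVS came to −0.37 (adjusted p = 0.320) and TBK1 to −0.48 (adjusted p = 0.315). EIF2AK2 turned to 0.46 (adjusted p = 0.249). CGAS passed at 1.41. Under this correction IRF3 (−0.079), IRF7 (−0.048) and STING1 (−0.39) had values below 0 that did not pass. Removal of the trend thus left 3 genes past the threshold, of which 2 were among the 5. Of all 14939 genes tested 6184 then passed, 2631 lower and 3553 higher. The median log2 fold change of the set was −0.38, against 0.063 for all genes.

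**Figure D3:**
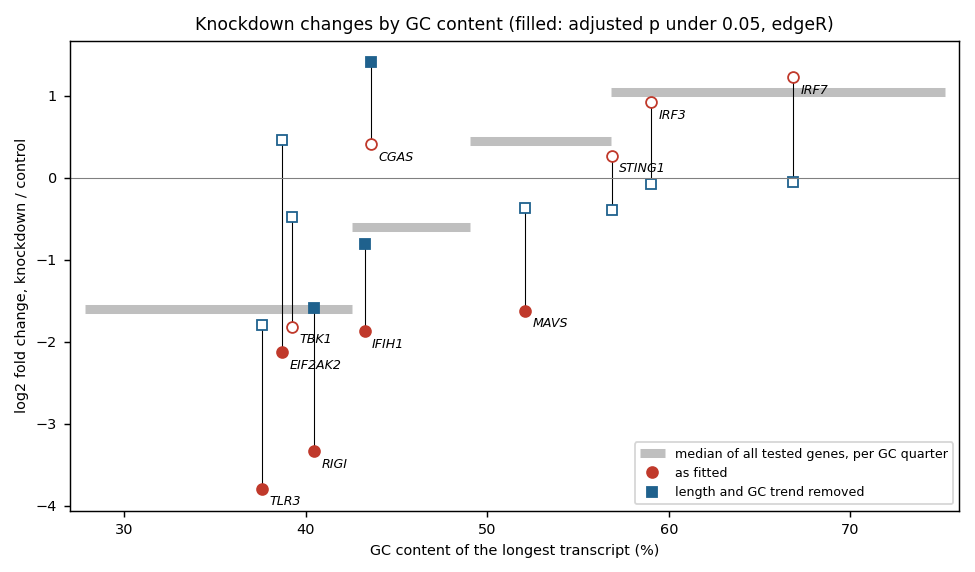
Knockdown log2 fold change of each gene against the GC content of its longest transcript, as fitted (circles) and after removal of the length and GC trend (squares), filled where the gene passed the threshold; grey bars are medians of all tested genes per GC quartile. RIGI, TLR3, IFIH1, MAVS, EIF2AK2 and TBK1 lie below the grey bar of their quartile as fitted. EIF2AK2 (−2.13) and TBK1 (−1.81) do so the least, beside a bar at −1.60. The bars leave out length: MAVS, at −1.62, belongs to the quartile of longest transcripts, whose median was −1.62.

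Other features of the knockdown libraries moved as well. The summed level of the 10 epithelial markers, in unscaled CPM, was 14457 to 39279 CPM in knockdown libraries, against 7153 to 7725 CPM in MKN28 controls, and most of it came from KRT8, KRT18 and KRT19. CLDN4 had 56 counts in knockdown replicate 1 and 21578 or more in the other two. On the scaled CPM used elsewhere CDH1, the 1 marker of that list that fell, had 105.6, 88.3 and 56.9 CPM in knockdown libraries, against 318, 419 and 274 CPM in MKN28 controls, and EPCAM had 908, 222 and 248 CPM in knockdown libraries, against 492, 437 and 444 CPM in controls. For the 10 immune markers the unscaled sum was 35.6 to 42.9 CPM in knockdown libraries and 11.9 to 44.5 CPM in controls. Mitochondrial genes took 2.27% to 4.67% of counts in knockdown libraries, against 5.08% to 7.05% in MKN28 controls, and 17504 to 20560 genes had a count in knockdown libraries, against 21102 to 22579 in controls. In bulk RNA fewer cells that express a gene and less RNA per cell cannot be told apart. What part these features had in the changes above was not tested.

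Overexpression of ZNF165 in MKN45 left no gene of the set past the threshold. CGAS and IRF7 were not tested for want of counts, and of the other 8 genes 0 rose and 0 fell, where 1.13% of all 15833 genes tested passed (0.935% higher, 0.196% lower). At an unadjusted p under 0.05 edgeR's quasi-likelihood test counted 1 rising gene (TBK1) and 0 falling, and DESeq2 passed 0 in either direction. The median log2 fold change of the 8 genes was 0.54, against −0.0022 for all genes. Here too the all-gene median moved with GC content, from 0.47 in the lowest quartile to −0.28 in the highest. With the length and GC trend removed the median of the set was 0.16, against −0.063 for all genes.

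RIGI had 5.22, 5.41 and 6.36 CPM in overexpression libraries, against 4.4, 1.43 and 5.12 CPM in MKN45 controls. All overexpression libraries stood above all controls, with control replicate 2 far below the rest, and the log2 fold change was 0.64 ± 0.42 (adjusted p = 0.345). IFIH1 repeated this picture with 18.4, 19.4 and 20.2 CPM in overexpression libraries and 17.2, 5.90 and 19.9 CPM in controls, here with overlap (0.44 ± 0.39, adjusted p = 0.480). TLR3 had 9.15, 8.46 and 7.68 CPM in overexpression libraries and 8.16, 1.88 and 6.02 CPM in controls, again lowest in control replicate 2 (0.66 ± 0.44, adjusted p = 0.357).

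CGAS was at 0 counts in every overexpression library and at 0, 0 and 2 counts in the MKN45 controls. IRF7 likewise had 0 counts in the overexpression libraries and 0, 1 and 0 counts in the controls. A count of 0 over the 3 overexpression libraries allows a level of up to 0.0537 CPM (3 counts of their total). STING1 was expressed at 3.79, 5.67 and 4.55 CPM in overexpression libraries and 3.81, 5.32 and 3.26 CPM in controls, with overlapping groups (0.19 ± 0.30, adjusted p = 0.695).

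MAVS had 93.1, 94.7 and 94.4 CPM in overexpression libraries and 97.3, 89.4 and 75.5 CPM in MKN45 controls, a log2 fold change of 0.12 ± 0.20 (adjusted p = 0.722). IRF3 had 55.9, 57.5 and 55.2 CPM in overexpression libraries and 48.0, 84.3 and 59.7 CPM in controls (−0.18 ± 0.25, adjusted p = 0.666). Both groups overlapped for each of these genes, and the overexpression libraries varied less among themselves than the controls did.

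TBK1 came nearest to the threshold. It had 40.2, 40.2 and 39.6 CPM in overexpression libraries, against 24.0, 8.04 and 25.7 CPM in MKN45 controls. The groups did not overlap, and the log2 fold change was 1.07 ± 0.39 (adjusted p = 0.133). Without MKN45 control replicate 2 the difference was smaller and passed, at 0.70 (adjusted p = 0.0303). EIF2AK2 also lay higher in each overexpression library (129, 93.8 and 112 CPM) than in any control (87.8, 36.7 and 82.0 CPM), with a log2 fold change of 0.71 ± 0.33 (adjusted p = 0.199). With the length and GC trend removed its value was −0.10 and that of TBK1 0.71 (adjusted p = 0.0661).

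The difference between both arms was tested in a fit of all 12 libraries, as the knockdown effect minus the overexpression effect. It was below 0 and past the threshold for 6 of the 10 genes, beside 23.0% of all genes (42.9% in either direction). None was above 0 and past it (0 also at an unadjusted p under 0.05 and in DESeq2). STING1 (0.13 ± 0.62), IRF3 (1.16 ± 0.65), CGAS (3.12 ± 1.58) and IRF7 (3.15 ± 2.07) lay above 0 without passing. CGAS and IRF7, at or near 0 counts in MKN45, were not tested in the overexpression alone, so their difference is poorly measured. RIGI (−3.92 ± 0.69, adjusted p = 0.00082) and TLR3 (−4.36 ± 0.99, adjusted p = 0.00331) had the widest differences. MAVS (−1.67 ± 0.47, adjusted p = 0.0107) had the narrowest of the 6. IFIH1, TBK1 and EIF2AK2 lay between, at −2.26, −2.81 and −2.77 (adjusted p of 0.0227, 0.0136 and 0.0139). For TBK1 neither arm passed alone. The arms differ in cell line and in the direction of the ZNF165 change, and this test cannot tell these apart. With the length and GC trend removed RIGI, IFIH1, TLR3 and TBK1 remained past the threshold, and MAVS (−0.21) and EIF2AK2 (0.36) did not.

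Control cells of the lines differed in this pathway. In MKN45 controls 6 of 10 genes were lower than in MKN28 controls and 0 were higher, where 41.8% of all 16088 genes tested passed (20.4% lower, 21.4% higher). No gene was higher at an unadjusted p under 0.05 or in DESeq2. The median log2 fold change of the set was −1.72, against −0.04 for all genes. With replicate number entered as a block TBK1 (−1.10, adjusted p = 0.0071) and EIF2AK2 (−0.58, adjusted p = 0.0385) passed too, which made 8. Of all genes 8939 passed with that block, against 6717 without it. Pairs by replicate number were not established, since only replicate 2 of each line stood apart from the other controls.

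Both cytosolic RNA sensors were lower in MKN45. RIGI averaged 4.09 ± 2.09 CPM in MKN45 controls and 132 ± 19.3 CPM in MKN28 controls (SD, n = 3 each), a 32.1-fold lower level (log2 fold change −5.01 ± 0.47, adjusted p = 5.38e-06). IFIH1 averaged 16.1 ± 7.88 CPM in MKN45 controls and 97.3 ± 12.2 CPM in MKN28 controls (−2.59 ± 0.42, adjusted p = 0.000379). MAVS differed less, with 99.8 ± 14.3 CPM in MKN45 controls and 196 ± 12.5 CPM in MKN28 controls (−0.97 ± 0.29, adjusted p = 0.0181), and did not pass without MKN45 control replicate 1 or 3 or MKN28 control replicate 1 (adjusted p up to 0.106). TLR3 was at a like level in both, 6.0 ± 3.46 CPM in MKN45 controls and 5.12 ± 2.21 CPM in MKN28 controls (0.23 ± 0.52, adjusted p = 0.751).

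Of the DNA route, CGAS was near 0 in MKN45. It had 2 counts over the 3 MKN45 controls and 831 over the 3 MKN28 controls, a 379-fold lower level over library totals (exact 95% interval 105 to 3136, counting error only, adjusted p = 3.75e-06 in edgeR). Its opposite-strand neighbour DDX43, which overlaps it, had 0 counts in all 12 libraries. STING1 was present but lower, with 4.75 ± 1.47 CPM in MKN45 controls and 24.98 ± 6.74 CPM in MKN28 controls (−2.40 ± 0.41, adjusted p = 0.000478). For both genes every MKN45 control lay below every MKN28 control.

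Of the factors, IRF7 had 1 count over the MKN45 controls and 1902 over the MKN28 controls, 1736-fold lower (interval 311 to 68597, adjusted p = 1.2e-06). IRF3 was expressed in both, at 73.7 ± 24.9 CPM in MKN45 controls and 47.6 ± 8.74 CPM in MKN28 controls (0.63 ± 0.34, adjusted p = 0.163). IRF3 shares 734 nt with BCL2L12 on the opposite strand, which had 397 to 2772 counts per library, and without a known strand setting reads of the pair cannot be told apart. The same holds for 35 nt that EIF2AK2 shares with GPATCH11. TBK1 averaged 21.6 ± 10.4 CPM in MKN45 controls and 44.4 ± 18.4 CPM in MKN28 controls (−1.03 ± 0.45, adjusted p = 0.0835), and EIF2AK2 averaged 77.5 ± 29.1 CPM in MKN45 controls and 117 ± 49.0 CPM in MKN28 controls (−0.59 ± 0.40, adjusted p = 0.262).

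The rest of the pathway was read from 7 lists of other genes, 86 in all, by count and median. Regulators of the RIG-I-like receptors showed no common direction in the knockdown: 2 rose, 2 fell and 7 of 11 tested did not pass (median log2 fold change 0.64, against −0.20 for all genes). These counts and those of the next lists stand against 19.2% of all genes higher and 21.6% lower in the knockdown. ZCCHC3 (1.5, adjusted p = 0.0212) and RNF135 (1.48, adjusted p = 0.0304), cofactors of RIG-I signalling, rose. ADAR, the adenosine deaminase that edits double-stranded RNA, fell (−1.46, adjusted p = 0.0286), as did ZC3HAV1, a zinc-finger antiviral protein (−1.34, adjusted p = 0.0330). ZC3HAV1 turned to 0.74 and ADAR came to −0.21 with the length and GC trend removed, and neither passed.

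In the endosomal toll-like receptor list 2 genes rose and 1 fell of 8 tested (median 1.22). TICAM1, the adaptor of TLR3, averaged 89.2 ± 46.3 CPM in knockdown libraries and 27.2 ± 10.7 CPM in MKN28 controls (1.71, adjusted p = 0.0295). That call was lost with library totals alone (0.80, adjusted p = 0.187). IRAK1, a kinase used by the other endosomal receptors, rose (2.41, adjusted p = 0.00778), and the chaperone HSP90B1 fell (−1.75, adjusted p = 0.0230), but not once that trend was removed (−0.41, adjusted p = 0.279). Among DNA sensing genes and their limits 4 rose and 2 fell of 10 tested (median 0.45). The DNA nuclease TREX1 (3.31, adjusted p = 0.0130), the RNase H2 subunit RNASEH2C (2.92, adjusted p = 0.00604) and BANF1, which coats DNA (2.31, adjusted p = 0.00821), rose. IFI16, a DNA sensor, had 5, 0 and 1 counts in knockdown libraries, against 78, 37 and 73 in controls (−3.97, adjusted p = 0.00723), and ENPP1, which degrades the cGAS product, fell too (−2.94, adjusted p = 0.0277). After removal of the trend TREX1 (1.59, adjusted p = 0.0604), BANF1 (0.73, adjusted p = 0.0647) and ENPP1 (−0.96, adjusted p = 0.298) did not pass.

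Around TBK1, the kinase and adaptor list had 2 rising and 0 falling genes of 11 tested (median 0.77), with 0 falling also at an unadjusted p under 0.05 and in DESeq2. RELA, the NF-kB subunit (1.97, adjusted p = 0.0110), and IRF1 (1.84, adjusted p = 0.0211) were these 2 genes. Of the double-stranded RNA effectors and eIF2alpha kinases 2 rose and 4 fell of 11 (median −1.48), beside 19.2% and 21.6% of all genes. OAS1, a synthetase activated by double-stranded RNA (−2.42, adjusted p = 0.0211), and the eIF2alpha kinase EIF2AK3 (−1.76, adjusted p = 0.0221) fell. EIF2AK3 came to −0.26 with the trend removed (adjusted p = 0.541). PPP1R15A, which directs dephosphorylation of eIF2alpha, rose 10.5-fold to 3869 ± 1652 CPM in knockdown libraries, against 369 ± 212 CPM in controls (3.39, adjusted p = 0.00456), and OASL, a cofactor of RIG-I, rose (1.64, adjusted p = 0.0315).

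In interferon receptor signalling 1 gene rose and 3 fell of 11 (median −0.55), beside the same 19.2% and 21.6%. STAT2 (−2.50, adjusted p = 0.00463) and the receptor chain IFNAR1 (−2.73, adjusted p = 0.0118) were among those that fell, and the feedback inhibitor SOCS3 rose (2.05, adjusted p = 0.0225). STAT2 stayed past the threshold with the trend removed (−2.37, adjusted p = 0.0012), and IFNAR1 did not (adjusted p = 0.0523).

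Genes that sensor signalling switches on were higher in part: of 17 output genes 9 rose and 0 fell (10 and 0 at an unadjusted p under 0.05, 10 and 1, RSAD2, in DESeq2), with a median of 1.84, beside 19.2% of all genes that rose. The interferon lambda genes led, IFNL1 with 4.47 ± 0.68, IFNL2 with 4.55 ± 0.54 and IFNL3 with 5.27 ± 0.66 (adjusted p = 0.00367 each). IFNL2 and IFNL3 are near-identical, and their counts may be split between them. IFNB1, named after its values had been seen, had 880, 164 and 142 counts in knockdown libraries, against 39, 30 and 16 counts in MKN28 controls. ISG15, CCL5, IFIT1, CXCL10 and RSAD2 are given outside the naming rule for the knockdown. ISG15 had 929, 4211 and 3007 CPM in knockdown libraries, against 198, 441 and 117 CPM in controls. CCL5 had 385, 425 and 523 CPM, against 38.3, 82.0 and 24.2 CPM. IFIT1 had 597, 24.7 and 16.4 CPM in knockdown libraries, against 217, 194 and 147 CPM in controls. CXCL10 had 9.91, 0 and 0 CPM, against 3.66, 2.67 and 3.53 CPM. Both lay above the controls in knockdown replicate 1 and below them in replicates 2 and 3. RSAD2 was lower in all knockdown libraries (9.18, 0.57 and 1.78 CPM, against 12.8, 9.57 and 18.5 CPM). Over the alternatives 6 to 13 output genes rose, 11 with the length and GC trend removed.

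Of the pathway genes named for the knockdown, IFI16, RNASEH2C, PPP1R15A, STAT2, IFNAR1 and the IFNL genes passed with any single library left out. ADAR, EIF2AK3, ENPP1, HSP90B1, IRF1, OASL, TICAM1 and ZCCHC3 did not pass without knockdown replicate 2 or 3 or MKN28 control replicate 1 or 3, and RNF135 and ZC3HAV1 passed in that series only without knockdown replicate 1. BANF1 and IRAK1 lost their calls without MKN28 control replicate 1, TREX1 and RELA without control replicate 1 or 3, OAS1 without knockdown replicate 2 or control replicate 1 or 2, and SOCS3 without knockdown replicate 2 or control replicate 1 or 3. With library totals alone ZCCHC3, RNF135, OASL, SOCS3, IRF1, TREX1 and TICAM1 did not pass.

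**Figure D4:**
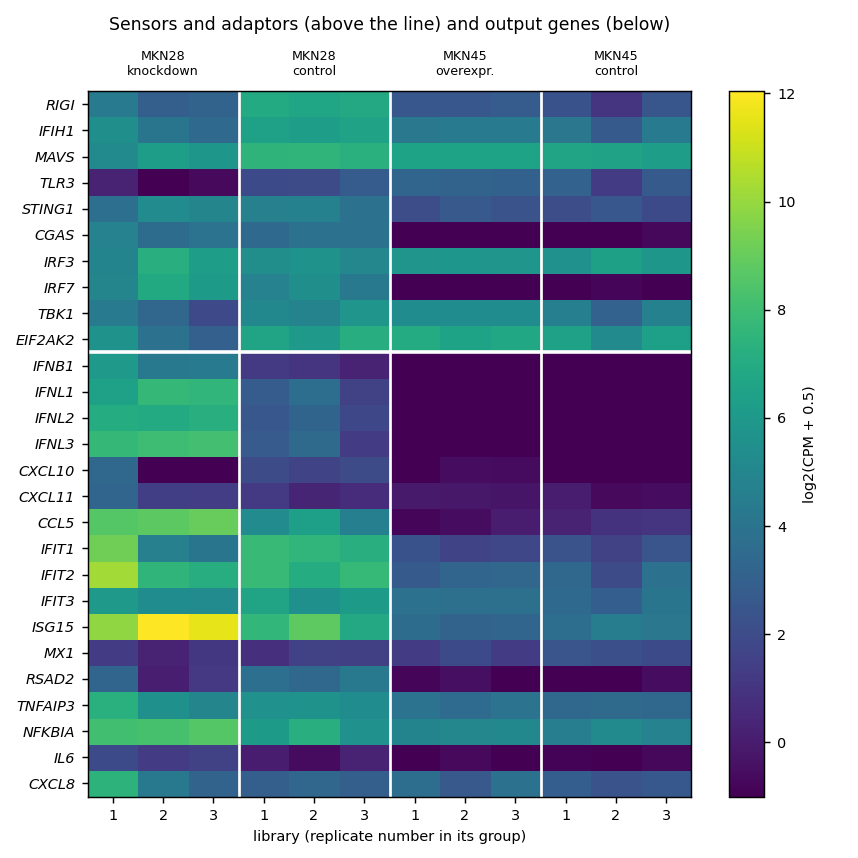
Levels of the 10 genes (above the white line) and of 17 output genes (below it) in the 12 libraries, as log2 of CPM plus 0.5. In the knockdown columns RIGI, IFIH1 and TLR3 are darker than in the MKN28 controls while IFNB1 and the IFNL genes are brighter, and the interferon rows are at 0 counts in all MKN45 columns.

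In the overexpression none of the 72 tested genes of the 7 lists rose or fell in edgeR. At an unadjusted p under 0.05 the counts were 4 higher and 8 lower, and DESeq2 passed 1 higher (IFI16) and 2 lower (PPP1R15A and CCL5). IFNB1, IFNL1, IFNL2 and IFNL3 had 0 counts in every MKN45 library.

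Between the control lines 14 of 16 output genes tested were lower in MKN45 and 0 higher, beside 20.4% and 21.4% of all genes (1, MX1, at an unadjusted p under 0.05, and 0 in DESeq2), with a median log2 fold change of −4.56 when the 5 genes at 0 counts in MKN45 were set at 3 counts. IFIT1 averaged 4.45 ± 1.37 CPM in MKN45 controls and 212 ± 37.4 CPM in MKN28 controls (−5.57, adjusted p = 9.26e-07), and the chemokine gene CCL5 averaged 1.36 ± 0.462 CPM in MKN45 controls and 54.1 ± 31.6 CPM in MKN28 controls (−5.32, adjusted p = 9.96e-06). RSAD2, an antiviral enzyme gene, had 0, 0 and 3 counts in MKN45 controls, against 281, 190 and 404 counts in MKN28 controls.

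Other layers differed in part, to be read beside 20.4% of all genes lower and 21.4% higher in MKN45. Of the double-stranded RNA effectors 4 of 11 were lower in MKN45 and 0 higher (0 also at an unadjusted p under 0.05 and in DESeq2), among them OASL (−4.18, adjusted p = 1.38e-05), OAS2 (−2.60, adjusted p = 0.000375) and OAS3 (−1.96, adjusted p = 0.000531). In interferon receptor signalling 3 of 11 genes were lower, SOCS1 (−3.47) and USP18 (−1.72) among them, and SOCS3 (1.16, adjusted p = 0.0434) was higher. NLRX1, a mitochondrial protein that binds MAVS, had 1574, 1443 and 1249 counts in MKN45 controls and 0 in each MKN28 control, at least 1558-fold higher against 3 counts over the group. Of the kinase and adaptor list 2 of 12 were higher in MKN45 and 0 lower (0 also at an unadjusted p under 0.05 and in DESeq2). IRF1 was higher by 1.18 on the log2 scale (adjusted p = 0.0443). The transcription factor gene IRF5 had 78, 70 and 89 counts in MKN45 controls and 0 in each MKN28 control, at least 86.6-fold higher by the same floor. ZC3HAV1 (−2.12) and ZCCHC3 (−1.55) were lower among the receptor regulators, and of the DNA sensing list IFI16 (−1.68) was lower while TRIM56 (1.77), ENPP1 (1.47) and RNASEH2C (1.13) were higher. The endosomal list had 0 of 9 past the threshold in either direction, 0 also at an unadjusted p under 0.05 and in DESeq2. When single libraries were left out, ENPP1, IFI16 and IRF1 lost their calls between lines in 4 of 6 cases, RNASEH2C in 3 and SOCS3 in 5.

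Likeness of profiles was measured as the root mean square difference of centred log2 CPM over the 12 libraries, among 17266 genes. Within the set TBK1 and EIF2AK2 were the closest pair, at 0.377, while MAVS with IRF3 came next at 0.904 and RIGI with IFIH1 at 0.964. The measure is also small for genes that vary little, and MAVS and IRF3 had SDs of only 0.661 and 0.611. Their value shows no shared course. In MKN28 controls the centred levels were 0.92, 0.97 and 0.70 for MAVS, against −0.37, −0.15 and −0.80 for IRF3. In knockdown replicates 2 and 3 they were −0.24 and −0.67 for MAVS, against 1.34 and 0.44 for IRF3. Over the whole table the nearest genes were ABCC2 (0.443) and ZNF83 (0.462) for RIGI, EXTL2 (0.249) and SGMS2 (0.296) for IFIH1, VPS41 (0.289) and RIMOC1 (0.303) for TLR3, and COX7B2 (0.362) and LINC02893 (0.384) for CGAS. MAVS was nearest to RAI1 (0.180) and TRIM14 (0.210), and STING1 to LRRC56 (0.227) and SLC44A2 (0.237). For TBK1 they were THUMPD1 (0.193) and RBM27 (0.250), for EIF2AK2 GPATCH2 (0.171) and SEC62 (0.177), for IRF3 SLC27A3 (0.137) and NR1H3 (0.160), and for IRF7 TGM2 (0.458) and ENG (0.534). No gene of the set was among the nearest pair of another.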

How the data were processed

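RNA-seq of 12 libraries was analysed from the deposited table of whole-number counts per Ensembl gene. The authors aligned reads with HISAT2 and used StringTie, a transcript quantifier, per the submitters' processing notes. How reads were assigned to genes, on which build, with which annotation and with what use of strand is not given in the sources used here. Symbols came from a gene name table (49659 of 50868 identifiers matched). Lengths, GC content and coordinates came from GENCODE 29 on GRCh38 (50076 matched).

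Each comparison was fitted over all genes with edgeR 4.0.16 (quasi-likelihood test, TMM factors, filterByExpr with a minimum count of 10 and total of 15), and p-values were Benjamini-Hochberg adjusted with a threshold of 0.05. The knockdown, the overexpression and the control lines (MKN45 over MKN28) were fitted on their own 6 libraries, and the difference between arms on all 12. Only the edgeR fit in its main setting was tested on simulated counts, which held no length or GC trend. Fold changes were fitted within a comparison. Group means in CPM were scaled within it too, while values per library, levels per kilobase and likeness used TMM over all 12 libraries. Ratios of genes with few counts used unscaled totals. Exact intervals and floors of 3 counts cover counting error only. DESeq2 1.42.0, other scalings, no filter, a fit of all 12 libraries, a replicate block, libraries left out and a correction for length and GC content (natural splines with 5 degrees of freedom, as an offset) were alternatives.

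Same-numbered libraries were taken as paired where deviations from group means correlated above 0.1 in all 3 pairs. This held between the control lines (0.264, 0.507 and 0.281), but not in the knockdown (0.291, 0.431 and −0.357) or the overexpression (−0.0553, −0.0547 and 0.0867). Between the control lines MKN45 replicate 1 also correlated with MKN28 replicate 3 (0.275), and MKN45 replicate 3 with MKN28 replicate 1 (0.150). Only replicate 2 stood apart from the others (−0.394 to −0.297), so the rule does not establish pairs.

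The genes of the set and all lists were chosen with earlier results of these data known. All 10 genes are named. Of each other list and comparison up to 3 rising and 3 falling genes were named, those with the smallest adjusted p among genes past the threshold whose groups did not overlap. The output genes IFNB1, ISG15, CCL5, IFIT1, CXCL10 and RSAD2 were given for the knockdown outside this rule. Values of 2 list genes that this rule names are not reported here. For each gene of the set the 2 genes of nearest profile were named.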

Additional observations from a re-analysis of the deposited data

Results flagged for a closer look

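For 6 of the 10 genes the knockdown effect in MKN28 and the overexpression effect in MKN45 differed in a test of the difference itself (edgeR's quasi-likelihood test on all 12 libraries, adjusted p under 0.05). Cell line and direction of the ZNF165 change cannot be told apart in this test. The difference, knockdown minus overexpression on the log2 scale, was −3.92 for RIGI, −2.26 for IFIH1, −1.67 for MAVS, −4.36 for TLR3, −2.81 for TBK1 and −2.77 for EIF2AK2. Of all genes 42.9% passed this test, and 23.0% passed with a difference below 0. When single libraries were left out, all 6 stayed below 0, and IFIH1 alone did not pass in 1 case, without knockdown replicate 2 (adjusted p = 0.0516). With the length and GC trend removed 4 passed (RIGI, IFIH1, TLR3 and TBK1), MAVS did not, and EIF2AK2 turned to above 0. With that and the replicate block 2 passed (RIGI and IFIH1). Without both knockdown libraries whose descriptions name another gene, RIGI, MAVS and TLR3 had adjusted p under 0.05, with the spread taken from the other groups and the lone knockdown library assumed to vary like them.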

How the results depend on the processing

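RIGI was past the threshold in the knockdown, between the lines and between the arms under every alternative run. The number of the 10 genes past the threshold in the knockdown, 5 as fitted, was 3 with the length and GC trend removed, 2 with that and the replicate block, and 2 to 8 with single libraries left out (8 without knockdown replicate 1, and 2 without knockdown replicate 3 or MKN28 control replicate 1 or 3). Without knockdown replicates 2 and 3 together it was 3 (RIGI, MAVS and TLR3), and 3352 of all genes passed, with a lone knockdown library assumed to vary like the controls. In the knockdown 6184 of all genes passed with the trend removed, and 5683 with that and the replicate block. Of all genes 2642 to 10378 (the most without knockdown replicate 1) passed in the knockdown when single libraries were left out, against 6092. In the overexpression 0 to 1 of the set and 1 to 1338 of all genes passed, against 179. That total was 1834 in DESeq2, 722 without a filter, 1261 with the trend removed, 8 with the replicate block, 111 with both and 3 in the fit of all 12 libraries. Between lines the set counted 5 to 6 (of all genes 5085 to 7499), and between arms 5 to 7 (of all genes 5917 to 10454), 2 with trend and replicate block, and 3 without the pair of knockdown libraries.

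Signs turned as follows, none past the threshold. With library totals alone, which moved the median of all genes to −0.92 in the knockdown, STING1 had −0.66, CGAS −0.24 and IRF3 −0.063, and between arms STING1 −0.97 and IRF3 −0.0088. With the trend removed the knockdown gave STING1 −0.39, IRF3 −0.079, IRF7 −0.048, EIF2AK2 0.46 and ZC3HAV1 0.74 (with the replicate block −0.38, −0.13, −0.050, 0.42 and 0.72). The overexpression gave MAVS −0.21, IRF3 0.094 and EIF2AK2 −0.10 (with the block −0.21, 0.10 and −0.11), and the arms STING1 −0.66, IRF3 −0.029 and EIF2AK2 0.36 (with the block −0.65, −0.10 and 0.33). Without the pair, STING1 had −0.73 and IRF3 −0.51, and between arms −0.96 and −0.37. With single libraries left out, STING1 ranged from −0.067 to 0.71 in the knockdown and from −0.21 to 0.46 between arms, IRF3 from −0.36 to 0.074 in the overexpression, and TLR3 from −0.18 to 0.66 and ZNF165 from −0.42 to 0.10 between lines. The cause was not tested.

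The share of higher genes among all calls was 47.0% in the knockdown, 25.1% with library totals alone and 57.5% with the trend removed. In the overexpression it was 82.7%, 56.6% in DESeq2 and 49.5% with the trend removed. Replicate numbers did not pair the arms, and with the block 6 genes of the set passed in the knockdown (TBK1 as well) and 0 in the overexpression. By median transcript length the mean level over 12 libraries was 74.2 CPM per kb for IRF3, 54.2 for TBK1, 64.2 for EIF2AK2, 17.3 for STING1 and 2.00 for TLR3, against 21.3, 8.36, 7.60, 4.54 and 0.769, so orders between genes depend on the length used. TLR3, CGAS and IRF7 are limited by depth where they have few counts.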
